A study of Mus musculus with 12 samples.

Results

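The 10 genes described here are immediate early genes or, in the case of Jund, a member of their families. They were followed through a Gas5 pulldown from cultured mouse hippocampal neurons. The AP-1 genes are Fos, Fosb, Jun, Junb and Jund. The others are the zinc finger gene Egr1, the nuclear receptor genes Nr4a1, Nr4a2 and Nr4a3, and the synaptic gene Arc. The genes were taken by name, and all 10 of the 10 had a row among the 49489 gene symbols of the total RNA table. All 10 were among the 20049 genes with enough counts to be tested. Gas5 is a noncoding RNA gene whose introns carry small nucleolar RNAs. RNA came from primary hippocampal neurons of newborn mice after 16 days in culture, and the total RNA libraries carry the names antisense (3 libraries) and sense (3 libraries). The labels give both groups the same cells and culture time and give no strain, genotype or drug for either. They do not say which name marks the capture and which the control, or whether replicates are separate cultures. The p-values thus rest on library-to-library spread, which could be purely technical.

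Immediate early genes are transcribed within minutes of synaptic activity, growth factor signalling or stress, without new protein synthesis, and their mRNAs are short-lived. Fos and Jun proteins pair to form the transcription factor AP-1, Egr1 binds GC-rich sites, and the Nr4a proteins are orphan nuclear receptors whose activity follows their abundance. Arc encodes a capsid-like protein that moves into dendrites as mRNA and takes part in the removal of AMPA receptors from synapses. In the hippocampus some of these genes, among them Fos, Egr1 and Arc, are used as marks of recently active neurons.

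Total RNA libraries held 5775052 to 6293093 estimated counts in the antisense group and 6478779 to 10424167 in the sense group. Gas5, at which the pulldown was aimed, took 9.706% to 14.2% of the antisense counts and 32.66% to 57.13% of the sense counts. Its log2 fold change, antisense minus sense here and throughout, was -2.78 (SE 0.286; edgeR adjusted p = 3.76e-06). Of 14 neuronal marker genes 13 were tested and none was higher or lower in edgeR at an adjusted p under 0.05, with summed levels of 901 to 1181 CPM in antisense and 1153 to 1461 CPM in sense. Of those 13, 6 had an unadjusted p under 0.05 and DESeq2 called 1. None of the 14 was at 0. Levels are given as CPM (counts scaled to a common depth of 1e6) on edgeR's TMM scale, which sets most genes level between libraries. Of 9 tested astrocyte markers 1 was lower, of 11 vascular and fibroblast markers 1 was lower, and none of 10 oligodendrocyte lineage markers passed in edgeR or DESeq2, with 5 at an unadjusted p under 0.05. In edgeR an unadjusted p under 0.05 was found for 3 of the 9 astrocyte and 4 of the 11 vascular and fibroblast markers. Over all tested genes 18.2% were higher and 4.35% were lower. Of 5 tested microglia markers 3 had an unadjusted p under 0.05, and 2 passed as higher and 1 as lower. Of the 2, P2ry12 had 91 counts over the antisense libraries and 2 over the sense libraries, so it entered the test through the antisense group alone. Summed levels over 10 microglia markers were 29.8 to 30.7 CPM in antisense and 20.4 to 21.97 CPM in sense. The astrocyte sum was 1226 to 1524 CPM in antisense and 1421 to 1848 CPM in sense. These libraries hold pulldown RNA, so marker levels need not follow the cell make-up of the cultures. Fewer cells of a type and less RNA per cell cannot be told apart either, and the part of these markers in the results was not tested.

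Jund and Nr4a1 were lower in the antisense libraries, and no gene of the 10 was higher. Of the 10, 2 were lower, against 4.35% of all tested genes, and 0 were higher, against 18.2% of all tested genes (edgeR quasi-likelihood test, Benjamini-Hochberg over 20049 genes). Without the correction 3 had a p under 0.05, the third being Nr4a3, and 0 of these were higher. The log2 fold change was negative for 7 and positive for 3, with a median of -0.14 beside -0.01 over all tested genes. Libraries of the groups did not overlap, with antisense below sense, for 3 of the 10 (Jund, Nr4a1 and Nr4a3) against 13.2% of all tested genes. With antisense above sense they did not overlap for 1 (Fosb), against 23.4%. Fosb entered the test through the antisense group alone, so its separation is only a description. Leaving out 1 library at a time gave 0 to 1 lower genes of the 10, with 0 without antisense replicate 2 or sense replicate 3. DESeq2 called 0 of the 10, with 3 at an unadjusted p under 0.05. By the authors' deposited table, none (0 of the 10) had an adjusted p under 0.05, against 16.0% of its genes, and 3 had an unadjusted p under 0.05.

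**Figure D1:**
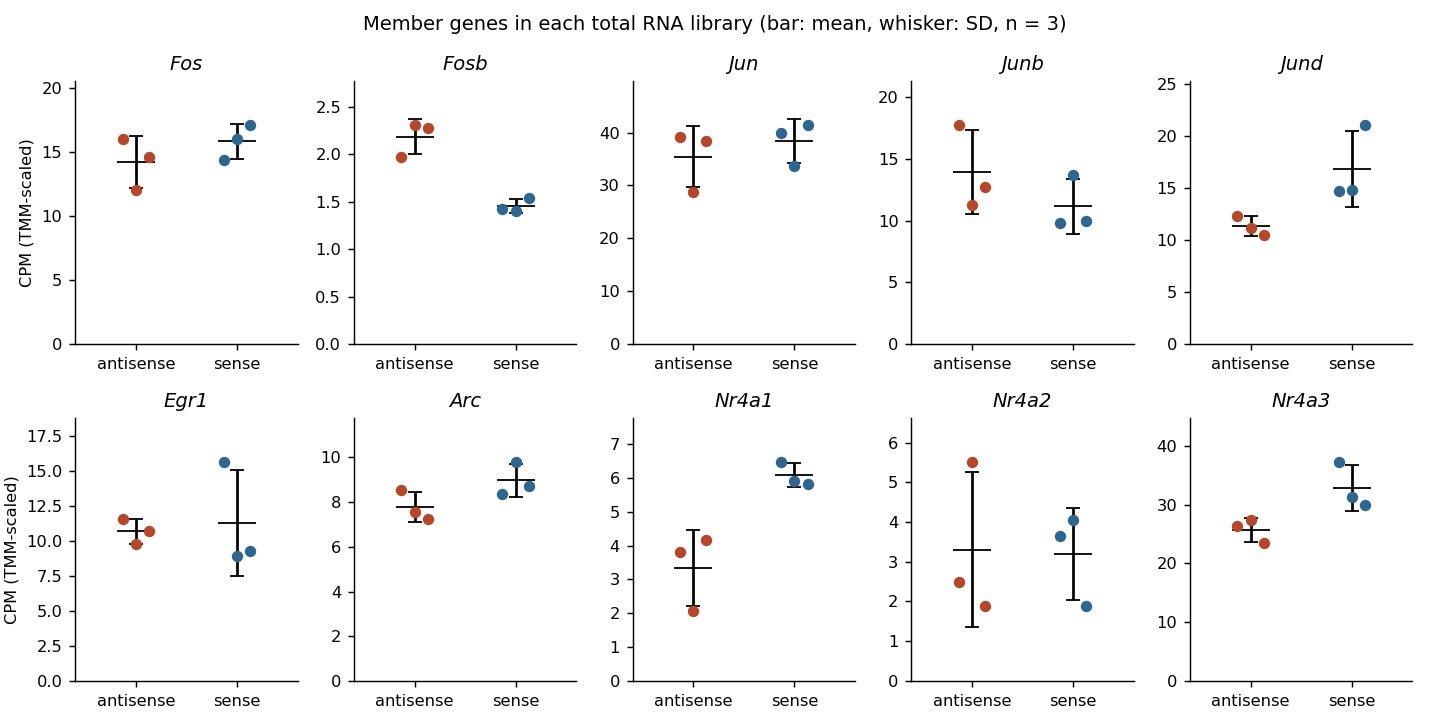
Level of each gene in CPM on the TMM scale (vertical axes, each from 0) in the 3 antisense and 3 sense total RNA libraries; points are libraries in replicate order, bars the means and whiskers the SD. The groups are separate for Jund, Nr4a1, Nr4a3 and Fosb and overlap for the other 6 genes. Fosb entered the test through the antisense group alone.

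Upstream sequences of Nr4a1, the gene with the larger difference of those called, of Fos, the best-known gene of the group, and of Jund, the other gene called, show what these genes share and do not share in front of their starts. Each line is the 250 bases before a RefSeq transcription start, 5′ to 3′ on the gene's strand (GRCm38.p6). The capitals mark TGACG, the half-site of the cyclic AMP response element (CRE) bound by CREB, on either strand, where the other strand reads CGTCA. The Nr4a1 window is chr15:101266596-101266845 on the plus strand, inside the span of the gene and in front of one of its starts. The Fos window is chr12:85473640-85473889 and the Jund window chr8:70697489-70697738, both on the plus strand.
Nr4a1: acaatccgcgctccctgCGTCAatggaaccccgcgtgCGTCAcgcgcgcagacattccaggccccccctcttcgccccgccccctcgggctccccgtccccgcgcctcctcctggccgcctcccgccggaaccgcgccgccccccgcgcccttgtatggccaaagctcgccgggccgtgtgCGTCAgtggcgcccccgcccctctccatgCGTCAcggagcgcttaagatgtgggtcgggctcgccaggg
Fos: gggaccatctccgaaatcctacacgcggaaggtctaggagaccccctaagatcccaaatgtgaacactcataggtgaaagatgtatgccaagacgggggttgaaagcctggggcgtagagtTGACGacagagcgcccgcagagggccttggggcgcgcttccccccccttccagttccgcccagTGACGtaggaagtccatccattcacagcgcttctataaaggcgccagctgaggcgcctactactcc
Jund: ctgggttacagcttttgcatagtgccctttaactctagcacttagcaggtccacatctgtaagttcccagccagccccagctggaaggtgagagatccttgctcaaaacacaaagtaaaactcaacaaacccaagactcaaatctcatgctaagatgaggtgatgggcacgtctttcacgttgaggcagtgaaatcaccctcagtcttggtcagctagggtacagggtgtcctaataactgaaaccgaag
Nr4a1 holds 4 half-sites in this window, Fos 2 and Jund 0. Of the 10 genes 8 had a window, while Egr1 and Arc had none. Of the 8, 6 hold at least 1 half-site, against 17.8% of 32851 windows of the same length. Nr4a2 and Nr4a3 hold 4 each, Fosb and Junb 1 each, and Jun 0. Neither the full CRE TGACGTCA, in which the half-site stands on both strands in overlap, nor the AP-1 site TGACTCA, the Nr4a site AAAGGTCA or the CArG box of serum response factor was matched in any of the 8 on either strand. These are held by 1.55%, 4.46%, 1.34% and 1.47% of all windows. The EGR site GCGNGGGCG was matched in Fosb, Nr4a1 and Nr4a2, 3 of the 8, against 4.7% of windows, and TATAAA in Fos and Nr4a2, 2 of the 8, against 12.4%. The Nr4a1 and Fos windows are rich in G and C, at 74.4% for Nr4a1 and 58.4% for Fos. The median over all windows was 52.4%, and of the 8 windows only that of Jund, at 47.6%, lay below it. Windows were not matched for G and C content, so its part in the shares of matches was not tested. Matches of letters describe these windows and do not show binding. Sites outside these 250 bases were not searched, so a gene without a match here may hold one elsewhere. Of the genes called, Nr4a1 holds 4 half-sites and Jund 0, while Nr4a2 and Nr4a3, which did not pass, hold 4 each. Any bearing of the half-sites on the calls was not tested.

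Among the Fos genes, Fos itself did not pass and Fosb rested on few counts. Fos, the founding AP-1 partner of Jun, lies on chromosome 12 from 85473890 to 85477274 (GRCm38.p6, as for all positions here). It had 122, 94 and 109 counts in the antisense libraries and 91.1, 103 and 100 in the sense libraries. On the TMM scale the antisense libraries averaged 14.2 ± 2.01 CPM and the sense libraries 15.9 ± 1.38 CPM (SD, n = 3 each). The groups overlapped, and the log2 fold change was -0.15 (95% interval -0.49 to 0.18; edgeR adjusted p = 0.543). Fosb encodes an AP-1 subunit whose truncated splice form builds up under repeated stimulation in brain. The gene lies on chromosome 7 from 19302696 to 19310118 and had 15, 18 and 17 counts in the antisense libraries and 9 in each of the 3 sense libraries. Its levels of 1.97, 2.31 and 2.28 CPM in antisense all lay above the 1.42, 1.40 and 1.54 CPM in sense. Its log2 fold change of 0.58 did not pass (95% interval -0.15 to 1.32; edgeR adjusted p = 0.265). Fosb met the count minimum, 1.57 CPM of the raw library total, in 3 antisense and 0 sense libraries, so it entered the test through the antisense group alone, and its separation is only a description. The nearest RefSeq gene with a row, the noncoding Gm26802, lies 1902 bases from Fosb.

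Of the Jun genes, which have no introns, Jund was lower in antisense, while Jun and Junb did not pass and Junb had a positive log2 fold change. Jund, the Jun member known for steady expression in resting cells, lies on chromosome 8 from 70697739 to 70700616. It had 94.2, 87 and 78 counts in the antisense libraries and 93, 95 and 123 in the sense libraries. Its levels were 12.4, 11.2 and 10.4 CPM in antisense and 14.7, 14.8 and 21.1 CPM in sense. All 3 antisense libraries lay below all 3 sense libraries, and sense replicate 3 stood far above the other sense libraries. Jund thus had a log2 fold change of -0.57 (SE 0.176; 95% interval -0.94 to -0.19; edgeR adjusted p = 0.0292), a level 1.48-fold lower in antisense. Without sense replicate 3 it was -0.39 and did not pass (adjusted p = 0.161), and it also missed the threshold without antisense replicate 2 (0.0641) or antisense replicate 3 (0.0777). DESeq2 gave -0.58 with an adjusted p of 0.0876.

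Jun, the AP-1 subunit that gave the family its name, lies on chromosome 4 from 95049036 to 95052222. It had the most counts of the 10 genes, 298, 224 and 286 in antisense and 253, 216 and 242 in sense. Its levels of 39.2, 28.8 and 38.3 CPM in antisense ran across the 40.0, 33.7 and 41.4 CPM in sense. For Jun the log2 fold change was -0.12 (95% interval -0.40 to 0.17; edgeR adjusted p = 0.6). Junb, a weaker activator that can hold Jun back, lies on chromosome 8 from 84976909 to 84978748. It had 135, 88.1 and 95.4 counts in antisense and 62, 88 and 58 in sense, and stood at 17.8, 11.3 and 12.7 CPM in antisense and 9.80, 13.7 and 9.93 CPM in sense. These groups overlapped as well, with antisense replicate 1 the highest, and the log2 fold change was 0.32 (95% interval -0.12 to 0.75; edgeR adjusted p = 0.31). Junos, a noncoding gene that lies 94 bases from Jun in RefSeq, had 30.5, 25.3 and 47.8 counts in antisense and 33, 28 and 33 in sense.

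Estimated counts of Jun and Junb were not whole numbers in 3 of 3 antisense libraries and were whole in all 3 sense libraries. Since the counts are per gene symbol, a fraction can arise where reads were divided between transcripts of different genes. The source of these fractions was not tested. Over all tested genes 68.7% to 69.5% of values were not whole in antisense and 57.3% to 58.8% in sense. For Nr4a2 all 6 values were fractional, for Nr4a3 5 of 6, for Fos 2 and for Jund 1, while Egr1, Arc, Nr4a1 and Fosb had whole counts throughout, taking values within 0.01 as whole. Whether counting used strand is not given in the sources used here, so reads of an opposite transcript may not be told apart.

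Egr1 and Arc, the most used marks of neuronal activity after Fos, did not differ beyond the spread between libraries. Egr1, on chromosome 18 from 34861207 to 34864956, had 88, 76 and 80 counts in antisense and 99, 57 and 54 in sense. Its levels were 11.6, 9.76 and 10.7 CPM in antisense and 15.7, 8.88 and 9.25 CPM in sense. Sense replicate 1 was far above the other 2 sense libraries, and the antisense libraries fell between. The log2 fold change was -0.08 (95% interval -0.55 to 0.39; edgeR adjusted p = 0.845), and without sense replicate 1 it was 0.22 (adjusted p = 0.522). Arc, on chromosome 15 from 74669081 to 74672570, had 65, 59 and 54 counts in antisense and 53, 63 and 51 in sense. The antisense libraries averaged 7.79 ± 0.68 CPM and the sense libraries 8.98 ± 0.748 CPM (SD, n = 3 each). The groups overlapped, with antisense replicate 1 inside the sense range, and the log2 fold change was -0.21 (95% interval -0.61 to 0.20; edgeR adjusted p = 0.497).

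Among the nuclear receptors, Nr4a1 was lower in antisense, Nr4a3 narrowly missed the threshold and Nr4a2 varied too much to place. Nr4a1 (Nur77), which is induced by depolarisation and by growth factors, lies on chromosome 15 from 101253902 to 101274795. It had 29, 16 and 31.0 counts in the antisense libraries and 41, 38 and 34.0 in the sense libraries. Its levels were 3.81, 2.05 and 4.15 CPM in antisense and 6.48, 5.92 and 5.82 CPM in sense. Every antisense library lay below every sense library, and antisense replicate 2 was the lowest by a wide margin. Nr4a1 had a log2 fold change of -0.86 (SE 0.286; 95% interval -1.48 to -0.25; edgeR adjusted p = 0.0415), a level 1.82-fold lower in antisense. The call held in 1 of 6 fits that left out a library, that without antisense replicate 3 (adjusted p = 0.0313). In the other 5 the adjusted p was 0.0622 without antisense replicate 1 and 0.128 without antisense replicate 2, and, with sense replicates 1, 2 and 3 left out in turn, 0.0979, 0.0628 and 0.0758. The log2 fold change ran from -1.05 to -0.61 over the 6. DESeq2 gave -0.88 with an adjusted p of 0.13.

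Nr4a3 (Nor1), the family member with the most counts here, lies on chromosome 4 from 48045078 to 48086447. It had 201, 213 and 175 counts in antisense and 236, 201 and 175 in sense. Its levels of 26.4, 27.4 and 23.4 CPM in antisense all lay below the 37.3, 31.3 and 29.97 CPM in sense. For Nr4a3 the log2 fold change was -0.35 (SE 0.123; 95% interval -0.62 to -0.09; edgeR adjusted p = 0.0521), and it did not pass in any of the 6 fits that left out a library. Nr4a2 (Nurr1), which midbrain dopamine neurons need in order to form, lies on chromosome 2 from 57106830 to 57124003. It had 18.7, 42.5 and 14.1 counts in antisense and 23.3, 26.04 and 10.6 in sense. Antisense replicate 2 held the highest of the 6 levels, 5.52 CPM, whereas the other antisense libraries held 2.50 and 1.88 CPM and the sense libraries 3.64, 4.05 and 1.88 CPM. The log2 fold change was 0.04 (95% interval -0.84 to 0.93; edgeR adjusted p = 0.958). That interval spans changes of nearly the size measured for Nr4a1 in either direction. A RefSeq gene without a row in the table, LOC105244150, overlaps Nr4a2, and none overlaps the other 9 genes.

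**Figure D2:**
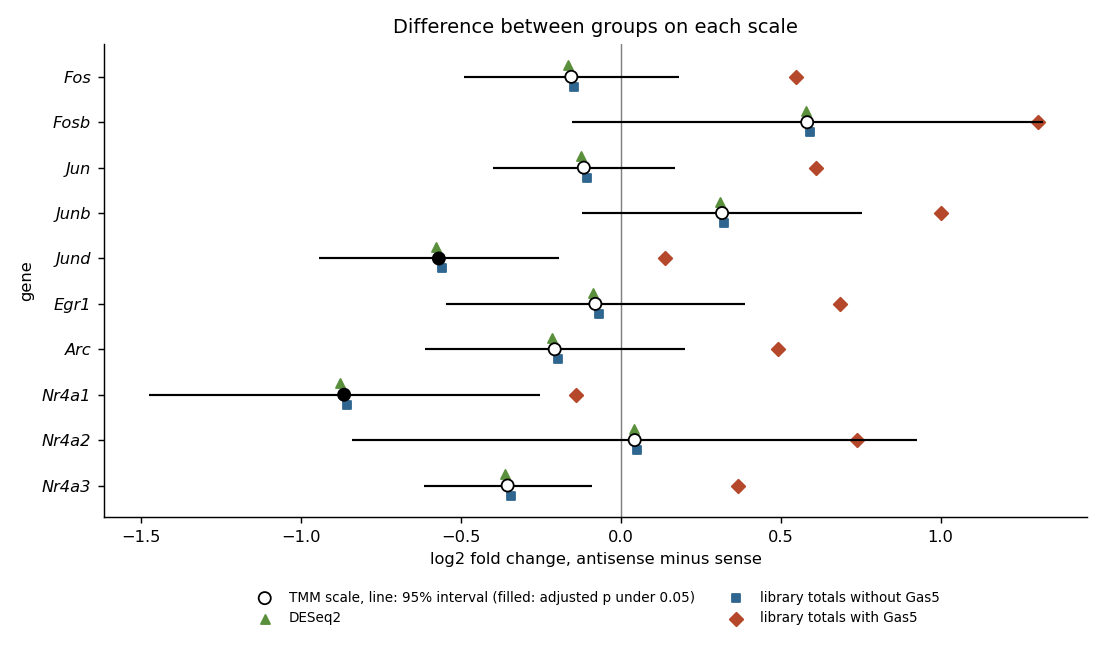
Log2 fold change, antisense minus sense (horizontal axis), of each gene on the TMM scale with its 95% interval, by DESeq2 and on library totals with and without Gas5. Filled circles mark Jund and Nr4a1, with adjusted p-values of 0.0292 and 0.0415; on library totals with Gas5 every gene but Nr4a1 lies right of 0.

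Each direction above is relative to the TMM scale, since the Gas5 share differs so much between groups. The 10 genes together made up 146 to 183 CPM of the raw library total in antisense and 92.1 to 138 CPM in sense, but 118 to 140 CPM in antisense and 140 to 152 CPM in sense once scaled by TMM. On library totals alone the median of all tested genes was 0.69, against -0.01 on the TMM scale, and 99.5% of all calls were higher, against 80.7% on the TMM scale. On that scale Fosb (1.304), Jun (0.61), Junb (1.001) and Egr1 (0.69) passed as higher, as did 12581 of all 20049 tested genes. Jund stood at 0.14 and Nr4a1 at -0.14. The median of the 10 genes was 0.58 there, against 0.69 for all tested genes. With Gas5 left out of the totals and no TMM, Jund (-0.56, adjusted p = 0.0309) and Nr4a1 (-0.85, adjusted p = 0.0443) were lower as on the TMM scale.

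Ratios between genes of a family within a library do not depend on the scale. Jund over Junb was 0.697, 0.987 and 0.818 in the antisense libraries and 1.5, 1.08 and 2.12 in the sense libraries. Every antisense ratio lay below every sense ratio, a mean log2 difference of -0.87 (exact permutation test, two-sided, p = 0.1). Fosb over Fos was 0.123, 0.191 and 0.156 in antisense and 0.0988, 0.0873 and 0.09 in sense, with no overlap (log2 difference 0.75), which is a description only, since Fosb entered the test through the antisense group. Jund over Jun overlapped, at 0.316, 0.389 and 0.273 in antisense and 0.368, 0.44 and 0.508 in sense (exact permutation p = 0.2). Nr4a1 over Nr4a3 overlapped too, at 0.145, 0.075 and 0.177 in antisense and 0.174, 0.189 and 0.195 in sense (exact permutation p = 0.2). With 3 libraries against 3 the smallest p is 0.1, so no ratio could pass, and over the 7 ratios compared the adjusted p ran from 0.35 to 0.7. The ratios were chosen after the values were seen.

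**Figure D3:**
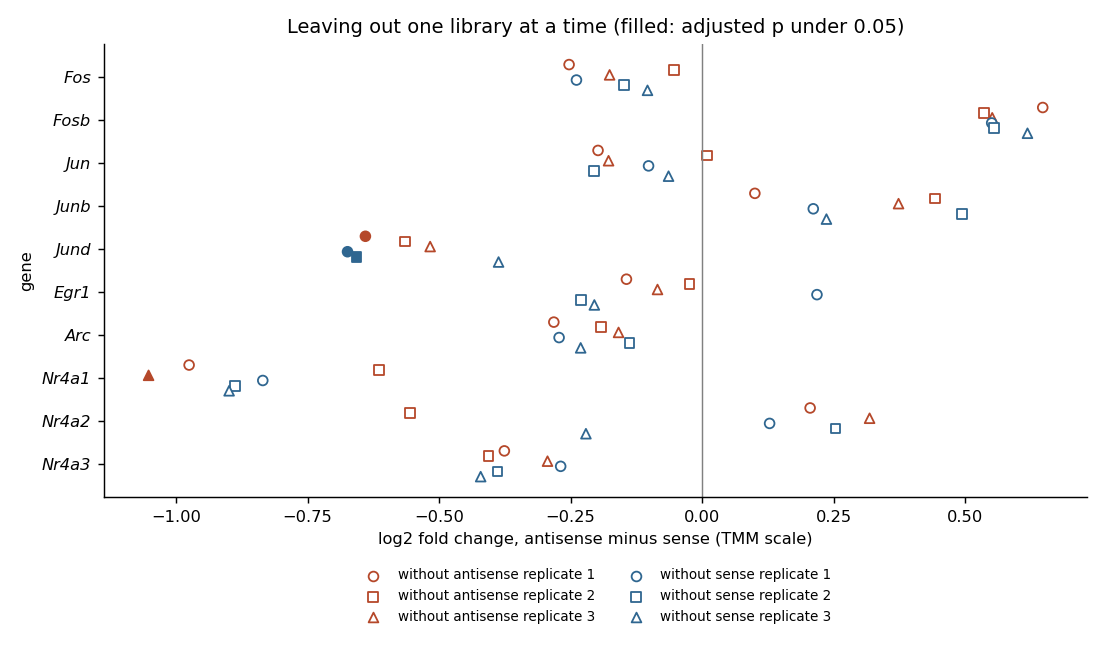
Log2 fold change of each gene (horizontal axis, antisense minus sense, TMM scale) with each of the 6 libraries left out in turn; filled points have an adjusted p under 0.05. Jund is filled in 3 of its 6 fits and Nr4a1 in 1, while Jun, Egr1 and Nr4a2 have points on both sides of 0.

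Within the antisense group, replicate 2 had the lowest CPM of Fos, Jun, Junb, Egr1 and Nr4a1 and the highest of Fosb, Nr4a2 and Nr4a3. Without it Jun went to 0.01 and Nr4a2 to -0.56 on the log2 scale, and Nr4a1 to -0.61. Among sense libraries it was replicate 3 that held the highest CPM of Fos, Fosb, Jun and Jund and the lowest of Nr4a1, Nr4a2 and Nr4a3. No fit with a library left out called both Jund and Nr4a1.

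By shape over the 6 libraries, the genes closest to Jun, the one with the highest mean CPM, were Disp3, Wdtc1 and Plekhm2. Their centred log2 levels lay a root mean square distance of 0.044, 0.047 and 0.049 from those of Jun, among 11001 genes with a mean of at least 10 CPM. Closest to Jund were Tfg, Adam8 and C530043A13Rik, at 0.072, 0.079 and 0.082. Closest to Nr4a1 were Gm37696, Npl and D130020L05Rik, each at 0.14. The likeness rests on 6 libraries only, and at that minimum Fosb, Arc, Nr4a1 and Nr4a2 were not candidates.

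Few of the other immediate early genes passed. Of 42 listed, 38 were tested, 1 was higher, 2 were lower and 35 did not pass. An unadjusted p under 0.05 in edgeR was found for 8 of the 38, and DESeq2 called 1 of them. Their median log2 fold change was -0.08 beside -0.01 over all tested genes, and the counts stand beside 18.2% higher and 4.35% lower over the table. Amigo3, a neuronal adhesion gene, was higher, at 13.3 ± 1.70 CPM over antisense libraries against 4.11 ± 0.825 CPM over sense libraries (SD, n = 3 each; log2 fold change 1.69, edgeR adjusted p = 2.49e-05). It overlaps Rnf123, which had 999 counts in antisense and 938 in sense, so its reads may not all be its own. The clock gene Per1 (-0.34, adjusted p = 0.028) and the zinc finger gene Klf6 (-0.38, adjusted p = 0.0293) were lower in edgeR. Each of these 2 lost the call in 3 of the 6 fits that left out a library, with an adjusted p of up to 0.128 for Per1 and 0.106 for Klf6.

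Genes of the later, effector wave of the activity response had the most negative median of the lists. Of 20 listed, 13 were tested, 0 were higher, against 18.2% over the table, 3 were lower, against 4.35%, and 10 did not pass. Values were negative for 12 of 13, with a median of -0.35. Acan, which encodes the perineuronal net proteoglycan aggrecan, averaged 2.41 ± 0.466 CPM over antisense libraries and 5.43 ± 1.78 CPM over sense libraries (SD, n = 3 each; log2 fold change -1.17, edgeR adjusted p = 0.0132). The tissue plasminogen activator gene Plat (-0.33, adjusted p = 0.0173) and the pentraxin gene Nptx1 (-0.50, adjusted p = 0.0375) were also lower in edgeR. Acan lost the call without antisense replicate 1 or sense replicate 1, Plat without sense replicate 3, and Nptx1 in 4 of the 6 fits. The neuronal markers named above had 12 of 13 negative and a median of -0.33, and their part in the values of this list was not tested.

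No gene passed among the partners of AP-1, EGR and NR4A proteins. Of 15 tested AP-1 partners and related bZIP genes none was higher or lower in edgeR, with a median of -0.05; those with the smallest p, Atf1 (-0.39, adjusted p = 0.152) and Atf5 (-0.43, adjusted p = 0.185), did not pass. Of 9 tested cofactors of EGR and NR4A proteins none passed either in edgeR (median -0.12). An unadjusted p under 0.05 in edgeR was found for 0 of the 15 and 1 of the 9, and DESeq2 called 0 genes of either list.

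Upstream regulators included genes called in each direction. Of 32 kinases, phosphatases and transcription factors acting before the immediate early genes, 3 were higher, 2 were lower and 27 did not pass (median -0.09), beside shares of 18.2% higher and 4.35% lower over all tested genes. Elk3, a ternary complex factor that joins serum response factor at its sites, was higher, at 27.2 ± 1.12 CPM over antisense libraries against 7.34 ± 0.705 CPM over sense libraries (SD, n = 3 each; log2 fold change 1.89, edgeR adjusted p = 2.66e-07). It overlaps Cdk17, which had 1999 counts in antisense and 1640 in sense. The activity-responsive factor gene Mef2c (0.58, adjusted p = 0.000186) and the kinase gene Rps6ka5 (0.36, adjusted p = 0.0223) were higher in edgeR. Elk3 and Mef2c passed whichever library was left out, and Rps6ka5 in 3 of the 6 fits.

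Of 12 genes for proteins that bind or degrade Arc, 1 was higher and 2 were lower (median -0.17), again beside 18.2% and 4.35% of all tested genes. The ubiquitin ligase gene Ube3a was higher, at 400 ± 66.3 CPM over antisense libraries against 199 ± 11.6 CPM over sense libraries (SD, n = 3 each; log2 fold change 1.01, edgeR adjusted p = 8.9e-06), within the span of Snhg14, a noncoding RNA with 69235 counts in antisense and 57762 in sense. The kinase genes Camk2a (-0.51, adjusted p = 0.00791) and Camk2b (-0.31, adjusted p = 0.0446) were lower in edgeR; Camk2a missed the threshold without sense replicate 1 (adjusted p = 0.0515) and Camk2b in 4 of the 6 fits. Of 16 genes acting on unstable mRNAs, the decay factor gene Upf2 was higher (0.31, adjusted p = 0.0488), the RNA-binding gene Elavl3 was lower (-0.41, adjusted p = 0.0234) and 14 did not pass (median -0.13), beside the same 18.2% higher and 4.35% lower. Upf2 passed in 1 of the 6 fits with a library left out and Elavl3 in 2. On library totals alone every gene named as lower in these lists had a positive log2 fold change except Acan (-0.40). Of the 15 list genes that passed in edgeR and fall under the naming rule given below, 8 passed in DESeq2. Per1, Klf6, Nptx1, Rps6ka5, Camk2b, Elavl3 and Upf2 did not, with DESeq2 adjusted p-values from 0.0514 for Camk2b to 0.166 for Upf2.

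**Figure D4:**
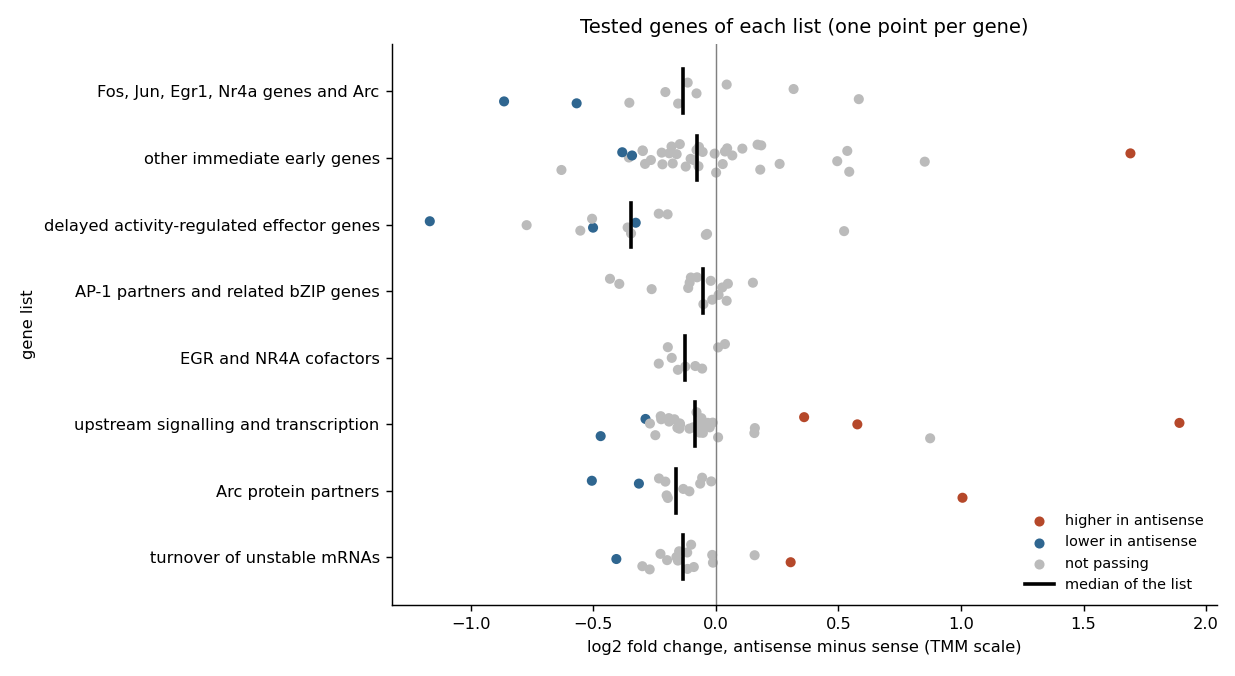
Log2 fold change on the TMM scale (horizontal axis, antisense minus sense) of each tested gene in the 10 genes described and in 7 related lists; red and blue points passed as higher and lower in edgeR, grey did not pass, and black bars are medians. Medians lie between -0.35 for the later effector genes and -0.05 for AP-1 partners.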

How the data were processed

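Per the file headers and values, the authors deposited estimated counts per gene symbol for the 6 total RNA libraries. The submitters' processing notes name Salmon, DESeq and GRCm38. The aligner index, kit and strand setting are not given here. The authors' deposited comparison table gives, per its headers, p-values, a log2 fold change coded sense minus antisense, its standard error (a score) and a mean normalised signal. Counts were rounded, filtered with filterByExpr (minimum count 10), scaled by TMM and tested in edgeR 4.0.16 (R 4.3.3) with no further term; the SE is the log2 fold change over the square root of F. DESeq2 1.42.0, other scalings and filters, a replicate block and leaving out each library were alternatives. The steps were run on simulated data in which few genes changed, in random directions. That setting does not show how they act where calls go mostly in the same direction, as here. RefSeq positions and sequences are of GRCm38.p6. Members and lists were chosen with earlier results of these data known. Named are the 10 genes, Gas5, up to 4 passing genes per list by smallest p (otherwise 2 not passing), the 3 closest profiles of Jun, Jund and Nr4a1, and overlapping genes. Some genes this rule takes are not reported here. Same-numbered libraries did not deviate together (correlations 0.06, -0.08 and -0.01). Small RNA libraries were not used here.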

Additional observations from a re-analysis of the deposited data

How the results depend on the processing

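On library totals alone 4 of the 10 genes were higher and 0 lower, beside 12581 higher and 63 lower of all 20049 tested genes. The lists held 74 higher and 0 lower. On the TMM scale the numbers were 3658 and 873 over all tested genes, and 6 and 10 in the lists. There Fos (0.55), Jun (0.61), Jund (0.14), Egr1 (0.69), Arc (0.49) and Nr4a3 (0.37) turned positive. That scale includes Gas5 in the totals. A minimum count of 50 left Fosb, Nr4a1 and Nr4a2 untested, and none of the other genes of the 10 was lower. Of the 13102 genes tested at that minimum, 1795 were higher and 402 lower, with 3 lower in the lists. DESeq2 called 0 of the 10 and 4 list genes as lower. Same-numbered libraries did not deviate together, and 1 of 3 antisense libraries matched its own number best. With a replicate block 1 of the 10 was lower (Jund, adjusted p = 0.0481) and Nr4a2 stood at -0.001. Leaving out 1 library gave 0 to 1 of the 10 lower, 0 higher, 492 to 1100 genes lower and 3392 to 3987 higher in all, and 4 to 11 lower and 4 to 6 higher in the lists. Lower genes in all numbered 571 without antisense replicate 1, 534 once sense replicate 1 was dropped and 492 once sense replicate 3 was. Over those fits Jun ran from -0.21 to 0.009, Egr1 from -0.23 to 0.22 and Nr4a2 from -0.56 to 0.32. Jund and Nr4a1 were both lower with no filter on low counts, and also on totals that leave Gas5 out. Depth was 16 to 41 counts a library for Nr4a1 and 10.6 to 42.5 for Nr4a2, and its part in the width of their intervals was not tested.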
